A study of Mus musculus with 13 samples.

Results

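Excitation-contraction coupling is the step by which an electrical signal at the muscle membrane becomes calcium release inside the fibre. It was followed here through 10 genes, taken by symbol as the ryanodine receptors, the dihydropyridine receptor complex and the calcium store proteins. All 10 (Ryr1, Ryr3, Cacna1s, Cacng1, Cacnb1, Stac3, Jsrp1, Atp2a1, Casq2 and Trdn) were found among the 23366 genes of the count table, and all 10 passed the filter on low counts that left 16537 genes for testing. Each had at least 34 counts in every library.

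In skeletal muscle the dihydropyridine receptor sits in the transverse tubule membrane and senses voltage. It faces the ryanodine receptor of the sarcoplasmic reticulum, which opens and lets stored calcium out, and a calcium pump then returns the calcium to the store. Primary myoblasts switch these genes on as they leave the cell cycle and fuse into myotubes.

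RNA was sequenced from 4 groups of primary mouse muscle cells. They came from hind limbs of mixed-strain pups aged 2 to 3 days. The groups were dICR/dICR myotubes (2 libraries), wild-type myotubes (5), dICR/dICR myoblasts (2) and wild-type myoblasts (4). The dICR/dICR cells lack both copies of the imprinting control region between Igf2 and H19. Myotubes had spent 24 hours in low-serum differentiation medium and myoblasts 0 hours, and all cells were primary cultures. The labels do not say whether libraries of a group came from separate pups or cultures, so the p-values measure the spread between these libraries, which may be technical.

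Total counts per library ran from 5.31 M to 56.44 M, in a deep set of 7 libraries (35.56 M or more) and a shallow set of 6 (10.91 M or fewer). Both dICR/dICR myotubes and wild-type myotubes 1 to 3 and myoblasts 1 and 2 were deep, while both dICR/dICR myoblasts and wild-type myotubes 4 and 5 and myoblasts 3 and 4 were shallow. The sets were read from the totals, and the labels, which describe a pair of sequencing platforms, do not say which library was run on which. H19, which lies beside the deleted region, stood at 52.4 to 71.5 CPM (the count scaled to its library's TMM-adjusted total) in the 4 dICR/dICR libraries and at 2345 to 40480 CPM in the 9 wild-type libraries. All 6 myoblast and 8 myotube markers had counts in every library, and of the 7 cardiac markers Nkx2-5, Nppa, Nppb and Tnni3 stayed at or below 1.02 CPM, Gata4 at or below 6.72 CPM, Myh6 had 3.91 to 77.2 CPM and Tnnt2 90.5 to 2537 CPM. Ddx3y, on the Y chromosome, had 14.5 to 176 CPM in 9 libraries, the dICR/dICR ones among them, and 0.153 to 0.462 CPM in wild-type myoblasts 3 and 4 and myotubes 4 and 5, so that genotype and Y-linked expression cannot be told apart in the shallow myoblasts. Among wild-type libraries the low ones are the shallow ones, so depth set and Y-linked expression cannot be told apart there either.

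Upstream sequence was at hand for 5 of the 10 genes. The 3 windows below are shown because Cacna1s and Casq2 had the most similar profiles of any 2 members over the 13 libraries, while the genotype value of Atp2a1 in deep myotubes was nearer to 0 than theirs, a difference that was not tested. Each window holds the 250 bases before the RefSeq start (GRCm38.p6, 5′ to 3′ on the gene's strand), with every CANNTG in capitals. CANNTG is the E-box, the core that MyoD-family factors can bind, and it reads alike on both strands.
Cacna1s, chr1:136052561-136052810, plus strand: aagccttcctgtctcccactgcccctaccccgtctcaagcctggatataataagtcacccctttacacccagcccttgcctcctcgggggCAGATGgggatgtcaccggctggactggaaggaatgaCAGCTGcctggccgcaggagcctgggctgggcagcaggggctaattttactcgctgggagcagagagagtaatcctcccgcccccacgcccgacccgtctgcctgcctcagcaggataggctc
Casq2, chr3:102086165-102086414, plus strand: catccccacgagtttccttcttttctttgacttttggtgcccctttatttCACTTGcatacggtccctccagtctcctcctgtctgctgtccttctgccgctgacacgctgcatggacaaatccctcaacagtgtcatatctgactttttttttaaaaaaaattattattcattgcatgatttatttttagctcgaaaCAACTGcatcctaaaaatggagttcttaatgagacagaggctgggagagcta
Atp2a1, chr7:126463074-126463323, minus strand: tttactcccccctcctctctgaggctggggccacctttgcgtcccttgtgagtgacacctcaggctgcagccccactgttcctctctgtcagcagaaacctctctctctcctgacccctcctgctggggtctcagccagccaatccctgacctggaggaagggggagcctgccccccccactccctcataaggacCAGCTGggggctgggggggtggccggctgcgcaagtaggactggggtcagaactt

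Cacna1s and Casq2 held 2 E-boxes each and Atp2a1 held 1. An E-box was present in 66.2% of all 32851 promoter windows of the same length. Its CAGCTG form, which is a subset of CANNTG, was found in Cacna1s and Atp2a1 and in 13% of all windows. The MCAT core CATTCC, searched on both strands, occurred in the Cacna1s window and in 12.6% of all windows. The Ryr1 window and the first of 2 Cacnb1 windows had no E-box, and the second Cacnb1 window had 1. These are matches of letters, not measured binding.

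The first comparison asks how the genes change as wild-type myoblasts become myotubes. All 10 had higher means in wild-type myotubes than in wild-type myoblasts, and 6 of 10 rose over all libraries (edgeR quasi-likelihood, Benjamini-Hochberg adjusted p under 0.05), where 8.86% of all tested genes rose. The members' median log2 fold change was 2.05, against 0.02 over all tested genes. The same 6 stood higher in each of the 5 wild-type myotubes than in each of the 4 wild-type myoblasts, a separation found in 9.07% of all genes. In total RNA from a dish, fewer fused cells and less RNA per cell cannot be told apart.

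Ryr3, the minor ryanodine receptor of skeletal muscle, which is known from developing muscle, changed most. It had 57.2, 105, 117, 42.5 and 62.5 CPM in wild-type myotubes 1 to 5, against 2.50, 1.73, 4.19 and 5.97 CPM in wild-type myoblasts 1 to 4. Every myotube library was far above every myoblast library, by 4.47 ± 0.45 on the log2 scale (SE, adjusted p = 0.00029, edgeR). Ryr1, the main release channel of skeletal muscle, ranged from 714 to 1894 CPM in wild-type myotubes and from 125 to 737 CPM in wild-type myoblasts, so its groups overlapped. Its log2 fold change of 1.66 ± 0.59 missed the threshold (adjusted p = 0.0672, edgeR).

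The 3 receptor subunits rose. Cacna1s encodes the pore and voltage sensor, and it had 224, 285, 351, 529 and 853 CPM in wild-type myotubes 1 to 5, against 29.1, 31.3, 136 and 146 CPM in wild-type myoblasts 1 to 4 (log2 fold change 2.39 ± 0.62, adjusted p = 0.0202, edgeR). Cacng1 encodes the gamma subunit, a modulator of the channel. It had 202, 220, 290, 273 and 301 CPM in wild-type myotubes against 21.0, 25.9, 64.4 and 72.5 CPM in wild-type myoblasts (2.49 ± 0.42, adjusted p = 0.00276). The myotube libraries lay close together for Cacng1, whereas the myoblasts split between the deep pair and the shallow pair. Cacnb1, the beta subunit that carries the complex to the membrane, rose by 1.67 ± 0.38 (adjusted p = 0.0119).

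Among the store proteins Casq2 and Trdn rose. Casq2 encodes calsequestrin, the calcium buffer of the store, in the isoform best known from heart and slow fibres, and it averaged 1358 ± 573 CPM in wild-type myotubes and 312 ± 225 CPM in wild-type myoblasts (SD, n = 5 and 4; log2 fold change 2.12 ± 0.57, adjusted p = 0.0237, edgeR). Trdn encodes triadin, which ties calsequestrin to the release channel. It averaged 214 ± 96.8 and 36.6 ± 27.8 CPM in the same groups (2.55 ± 0.56, adjusted p = 0.00922). Atp2a1, the fast-fibre calcium pump SERCA1, had 1.98 ± 0.71 (adjusted p = 0.0698). Stac3, an adaptor that the receptor complex needs for coupling, had 1.27 ± 0.53 (adjusted p = 0.116), and Jsrp1, a junctional reticulum protein that binds both the channel and calsequestrin, had 1.07 ± 0.41 (adjusted p = 0.0843), so these 3 did not pass.

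Wild-type myoblasts of the deep and the shallow set differed in all 10 genes. Atp2a1, for one, had 30.7, 30.6, 218 and 246 CPM in wild-type myoblasts 1 to 4. Stac3 had 22.8, 19.1, 124 and 123 CPM in the same libraries. In both genes the shallow myoblasts 3 and 4 lay far above the deep myoblasts 1 and 2. Within either set all 10 genes rose, where 11.6% of genes rose in the deep set and 11.2% in the shallow set, and the log2 fold changes ran from 2.17 (Jsrp1) to 5.49 (Ryr3) in the deep set and from 0.63 (Jsrp1) to 3.39 (Ryr3) in the shallow set. In the fit with 1 mean for each group and depth set, added after the data were seen, 7 of 10 rose in the shallow set, where 3.72% of all genes rose, and Ryr1 (1.28), Stac3 (0.81) and Jsrp1 (0.61) did not pass. The count of 6 was 4 without wild-type myoblast 1 or 2 and 9 without wild-type myoblast 4, and it was 10 without wild-type myoblasts 3 and 4 together, where 11.4% of genes rose.

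**Figure D1:**
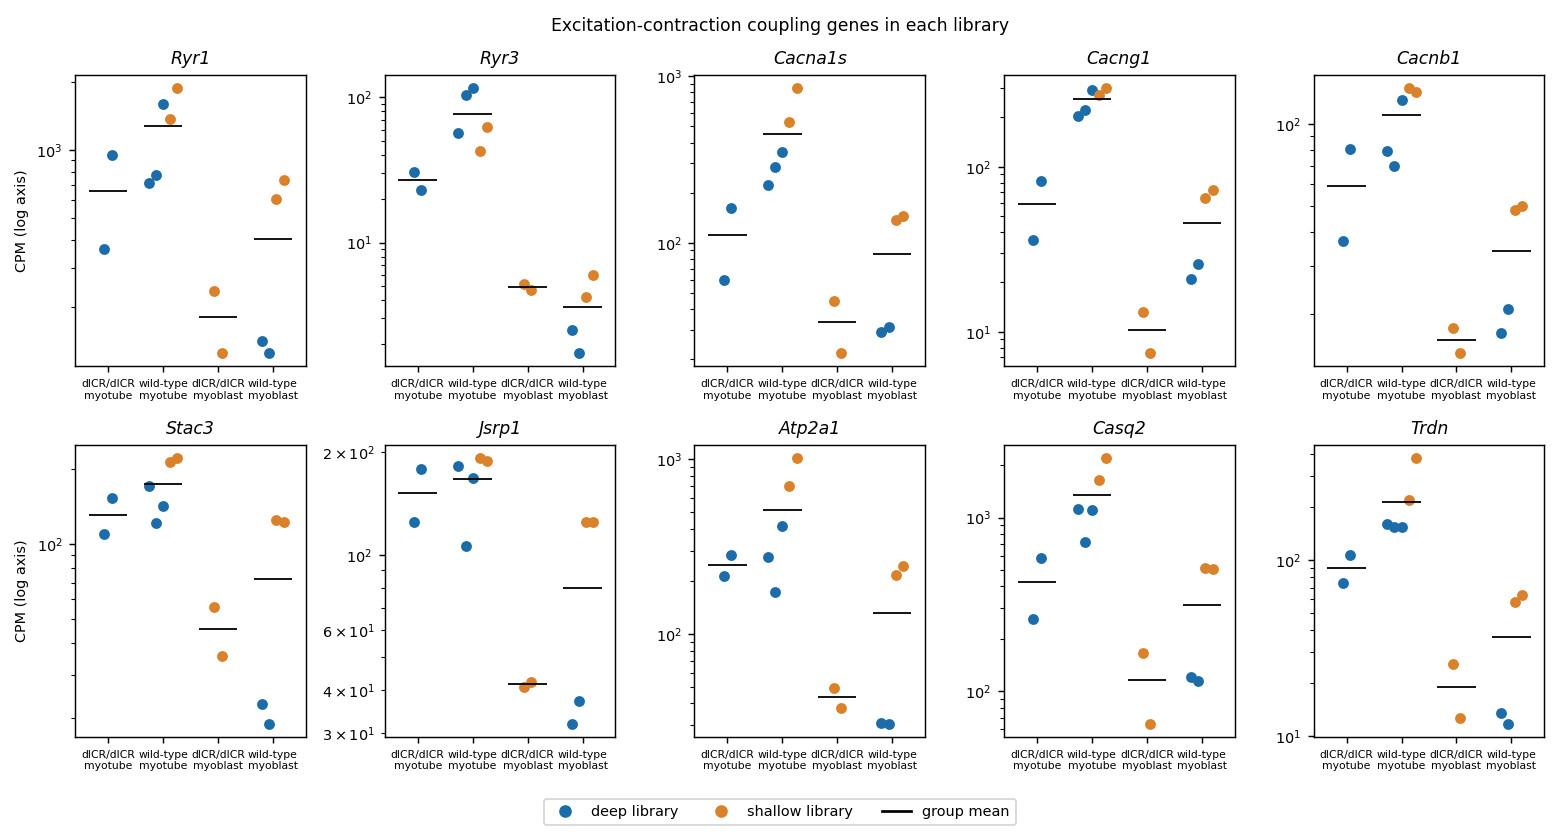
CPM of the 10 genes in each library, on a log axis of its own for each gene, with dICR/dICR left of wild type, myotubes left of myoblasts, a bar at the group mean and colour for the depth set. Ryr3 has the widest step between wild-type myotubes and wild-type myoblasts, and Cacng1 lies lower in both dICR/dICR groups than in every wild-type library of the same stage.

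**Figure D2:**
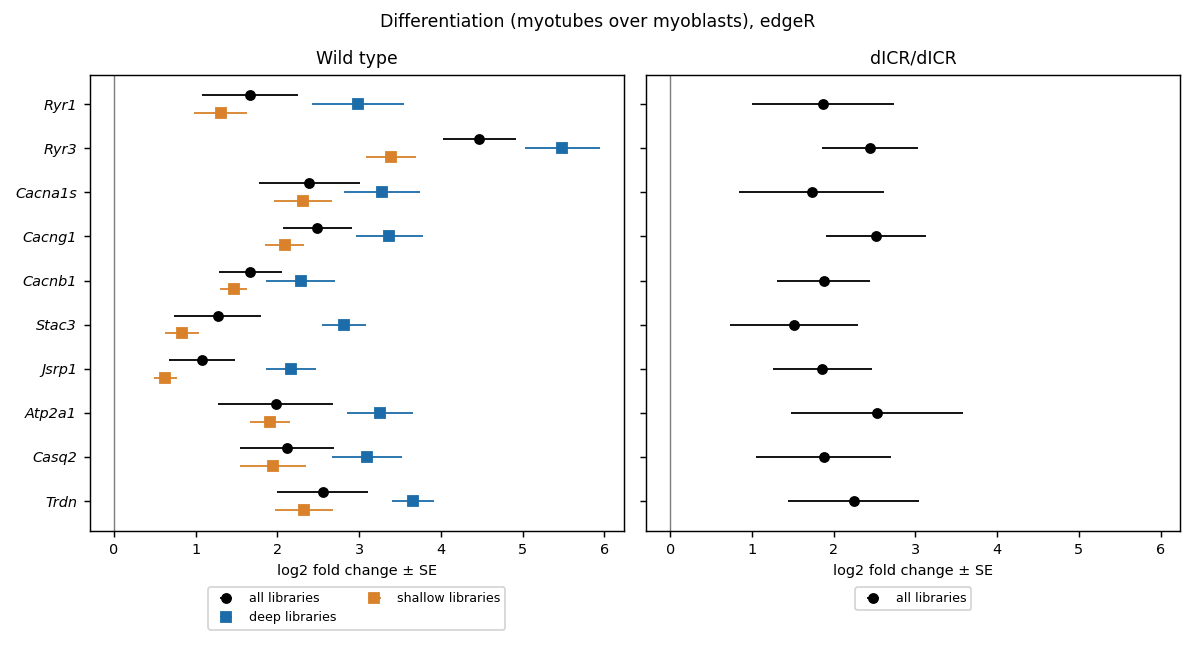
Log2 fold change of myotubes over myoblasts with its standard error from edgeR, for wild type over all, deep and shallow libraries and for dICR/dICR over all libraries. Every point lies above 0, and in wild type the deep libraries give the highest value for each gene.

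Differentiation in dICR/dICR cells asks the same of the mutant. All 10 genes were higher in both dICR/dICR myotubes than in both dICR/dICR myoblasts, a separation shared by 30% of all tested genes in this comparison of 2 with 2 libraries. The members' median log2 fold change was 1.88, against 0.00 over all genes. None of the 10 passed edgeR over all libraries, where 0.145% of all genes did, 7 had an unadjusted p under 0.05 where 19.2% of all genes had one, and DESeq2 called Ryr3 and Cacng1, among 7.03% of all genes. Here the stage coincides with the depth set, since the dICR/dICR myotubes are deep and the myoblasts shallow.

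Ryr3 had 30.8 and 22.9 CPM in dICR/dICR myotubes, against 5.16 and 4.69 CPM in dICR/dICR myoblasts (log2 fold change 2.45 ± 0.59, adjusted p = 0.0812, edgeR). Cacng1 had 36.0 and 82.4 CPM in dICR/dICR myotubes, against 13.1 and 7.43 CPM in dICR/dICR myoblasts (2.52 ± 0.61, adjusted p = 0.0822). Jsrp1 had 125 and 178 CPM against 41.0 and 42.2 CPM (1.86 ± 0.61, adjusted p = 0.164). The myotube pair differed more from each other than the myoblast pair did for Jsrp1. With the depth set as a term, whose size comes from the wild-type libraries, all 10 rose, with log2 fold changes from 2.50 (Ryr3) to 4.72 (Atp2a1), where 4.8% of all genes rose. In wild type that term coincides with the split in Ddx3y, which the dICR/dICR libraries do not have. Without the 4 shallow wild-type libraries 8 of the 10 rose, where 8.53% of genes did.

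Whether the change itself differed between genotypes was tested as the difference between both differentiation changes (dICR/dICR minus wild type). It passed for none of the 10 genes and for 0 of all tested genes in edgeR, with 1643 (9.94%) at an unadjusted p under 0.05, and DESeq2 called 62 genes (0.375%) and none of the 10. The value for Ryr3 was -2.03 ± 0.69 (adjusted p = 0.495, edgeR), the lowest of the 10 and the one with an unadjusted p under 0.05. The highest was Jsrp1 at 0.79 ± 0.71 (adjusted p = 0.682), and 6 of the 10 were positive, with a median of 0.12 (5 with DESeq2, where Cacng1 changed sign). These signs turned with the libraries used. The depth set as a term gave 9 positive (median 0.88), and leaving out wild-type myoblasts 3 and 4, or all 4 shallow wild-type libraries, gave 10 negative (medians -1.57 and -1.20). Without the 4 shallow wild-type libraries Ryr3 passed at -3.08 (adjusted p = 0.00968) and Jsrp1 was -0.34 (not called), where 5.22% of genes were called, though dICR/dICR myoblasts are then the only shallow group.

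The genotype effect in myotubes asks which genes differ once differentiation has begun. The log2 fold changes of dICR/dICR myotubes were negative for all 10, and their median was -1.14 against -0.06 over all tested genes, of which 53.2% were negative. The median was -0.73 within the deep set, -0.53 with the depth set as a term (7 negative) and -0.30 with the replicate number as a block (6 negative). None passed edgeR over all libraries, where 0.556% of all genes did, 4 had an unadjusted p under 0.05 where 16.8% of all genes had one, and DESeq2 called Ryr3 and Cacng1, among 6.52% of all genes. Ryr3, Cacna1s, Cacng1, Casq2 and Trdn were lower in both dICR/dICR myotubes than in each of the 5 wild-type myotubes, a separation downward that 8.76% of all genes showed.

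Cacng1 had the lowest value. It stood at 36.0 and 82.4 CPM in dICR/dICR myotubes, against 202, 220, 290, 273 and 301 CPM in wild-type myotubes 1 to 5, and its log2 fold change was -2.12 ± 0.54 (adjusted p = 0.0945 in edgeR). Both dICR/dICR libraries were well below the lowest wild-type library. Cacna1s stood at 59.6 and 162 CPM in dICR/dICR myotubes, against 224 to 853 CPM in wild-type myotubes (-2.02 ± 0.81, adjusted p = 0.245). Cacnb1 overlapped, at 37.2 and 80.8 CPM against 69.7 to 136 CPM (-0.87 ± 0.48, adjusted p = 0.375).

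The receptors and store proteins were spread in the same direction. Ryr3 stood at 30.8 and 22.9 CPM in dICR/dICR myotubes, against 57.2, 105, 117, 42.5 and 62.5 CPM in wild-type myotubes 1 to 5 (-1.51 ± 0.50, adjusted p = 0.173, edgeR). The deep wild-type libraries 2 and 3 were highest, and the deep library 1 lay between the shallow libraries 4 and 5. Ryr1 overlapped, at 363 and 956 CPM against 714 to 1894 CPM (-0.95 ± 0.74, adjusted p = 0.529). Casq2 had 259 and 588 CPM in dICR/dICR myotubes, against 1114, 722, 1108, 1648 and 2197 CPM in wild-type myotubes 1 to 5 (-1.68 ± 0.74, adjusted p = 0.278). Trdn had 74.3 and 107 CPM, against 154 to 380 CPM (-1.23 ± 0.68, adjusted p = 0.375). In each of these genes but Ryr3, dICR/dICR myotube 1 was the lower of the pair.

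Jsrp1 and Stac3 were nearest to 0. Jsrp1 had 125 and 178 CPM in dICR/dICR myotubes, against 182, 106, 168, 192 and 188 CPM in wild-type myotubes 1 to 5 (-0.14 ± 0.50, adjusted p = 0.902, edgeR). Stac3 had 109 and 153 CPM, against 171, 121, 142, 214 and 221 CPM (-0.40 ± 0.65, adjusted p = 0.782). Both genes overlapped between genotypes. With the depth set as a term Jsrp1, Stac3 and Atp2a1 turned to 0.24, 0.16 and 0.01 (none called). In the same fit Cacng1 passed at -1.80 (adjusted p = 0.0417, edgeR), where 425 of 16537 genes were called. Atp2a1 had 216 and 284 CPM, against 274, 174, 416, 703 and 1014 CPM (-1.05 ± 0.88, adjusted p = 0.562), and the high wild-type values were the shallow libraries 4 and 5.

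Within the deep set, which compares both dICR/dICR myotubes with wild-type myotubes 1 to 3, Cacng1 was -2.02 ± 0.39 (adjusted p = 0.0714, edgeR) and Ryr3 was -1.80 ± 0.37 (adjusted p = 0.0846). Cacna1s was -1.39 ± 0.42, Casq2 -1.23 ± 0.39 and Trdn -0.80 ± 0.22 in the same fit. Atp2a1 was -0.22 ± 0.35, Stac3 -0.15 ± 0.24 and Jsrp1 -0.02 ± 0.29. None of the 10 passed there, where 0.709% of genes did and 5 of the 10 had an unadjusted p under 0.05, against 17.3% of genes. When the spread was estimated from all 13 libraries with 1 mean for each group and depth set, a fit added after the data were seen, Cacng1 and Ryr3 were lower in the deep set (adjusted p = 0.0134 and 0.0183), where 3.63% of all genes were called.

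**Figure D3:**
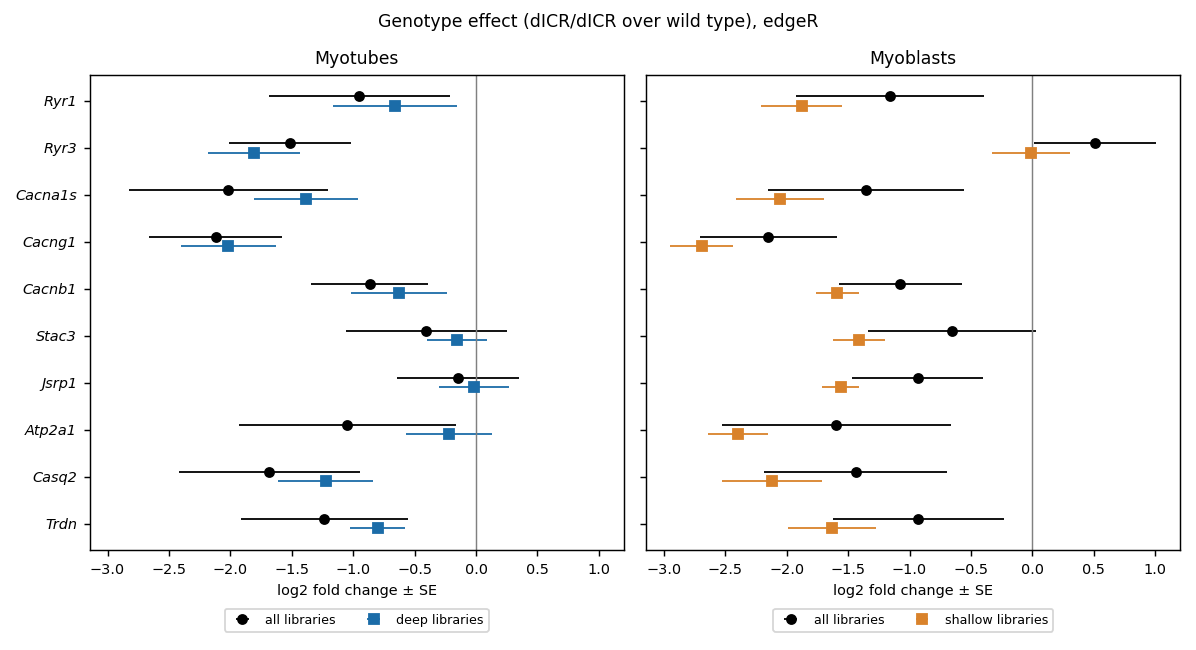
Log2 fold change of dICR/dICR over wild type with its standard error from edgeR, for myotubes (all and deep libraries) and myoblasts (all and shallow libraries). In myotubes the deep-library values run from -2.02 for Cacng1 to -0.02 for Jsrp1, and in shallow myoblasts Ryr3 alone lies at 0.

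In myoblasts the question was which genes differ by genotype before the medium is changed. Over all libraries 9 of 10 genes had negative values, with a median of -1.12 against -0.06 over all tested genes. None passed edgeR, where 0.0302% of all genes did, 1 had an unadjusted p under 0.05 (Cacng1) where 12.1% of all genes had one, and DESeq2 called Cacng1, among 2.68% of all genes. Cacng1 had 13.1 and 7.43 CPM in dICR/dICR myoblasts, against 21.0, 25.9, 64.4 and 72.5 CPM in wild-type myoblasts 1 to 4 (log2 fold change -2.15 ± 0.56, adjusted p = 0.181, edgeR). It was the single member whose groups did not overlap, where 14.3% of all genes were separated downward.

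The other genes depended on which wild-type myoblasts they were set against. Atp2a1 had 49.0 and 37.7 CPM in dICR/dICR myoblasts, above the 30.7 and 30.6 CPM of wild-type myoblasts 1 and 2 and below the 218 and 246 CPM of 3 and 4. Stac3 had 55.7 and 35.7 CPM, again above the 22.8 and 19.1 CPM of wild-type myoblasts 1 and 2 and below the 124 and 123 CPM of 3 and 4. Casq2 had 166 and 64.6 CPM, on either side of the 121 and 114 CPM of wild-type myoblasts 1 and 2 and below the 512 and 502 CPM of 3 and 4.

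Within the shallow set (both dICR/dICR myoblasts against wild-type myoblasts 3 and 4) 9 of 10 genes fell, where 10.3% of genes fell. The values were -2.69 ± 0.26 for Cacng1 (adjusted p = 0.00224, edgeR), -2.40 ± 0.25 for Atp2a1, -2.12 ± 0.41 for Casq2, -2.05 ± 0.36 for Cacna1s and -1.88 ± 0.33 for Ryr1. Trdn, Cacnb1, Jsrp1 and Stac3 lay between -1.63 and -1.41. With 1 mean for each group and depth set, 8 of these 9 were called and Ryr1 was not (-1.89, adjusted p = 0.0533, edgeR), where 5.25% of all genes were called. Ryr3 was the exception, with 5.16 and 4.69 CPM in dICR/dICR myoblasts against 4.19 and 5.97 CPM in wild-type myoblasts 3 and 4 (-0.01 ± 0.32, adjusted p = 0.984). Wild-type myoblasts 3 and 4 were the replicate pair most alike, with a chi-square of 4.67 per degree of freedom, against 34.3 for the dICR/dICR myoblasts. The within-set fit takes its spread from the shallow libraries alone. Against the deep wild-type myoblasts alone, a setting added after the data were seen in which genotype coincides with the depth set, the members' median was 0.37 and 7 of 10 values were positive, Cacng1 being among the 3 negative ones, and none was called.

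Markers of the muscle programme moved with these differences. The summed level of 8 myotube markers (Myog, Myh3, Myh8, Acta1, Ckm, Tnnt3, Tmem8c and Mybph) was 8428 and 15450 CPM in dICR/dICR myotubes, against 20810 to 38920 CPM in wild-type myotubes. It was 2714 and 1437 CPM in dICR/dICR myoblasts, against 2108 and 2076 CPM in the deep and 9512 and 10060 CPM in the shallow wild-type myoblasts. All 8 had counts in every library. In myotubes the sums of the 2 genotypes did not overlap, while Myh8, Tmem8c and Mybph taken singly did. The mean log2(CPM + 1) of the 8 markers nearly met, at 9.615 in dICR/dICR myotube 2 and 9.616 in wild-type myotube 1. Markers of dividing cells were higher in dICR/dICR than in the shallow wild-type myoblasts and most wild-type myotubes, but their sums overlapped in both stages. The sum of 9 of them was 2463 and 1174 CPM in dICR/dICR myotubes, against 286, 1193, 116, 119 and 102 CPM in wild-type myotubes 1 to 5. In myoblasts it was 2171 and 2205 CPM in dICR/dICR, against 2768, 2631, 1054 and 1015 CPM in wild-type libraries 1 to 4. Within the shallow myoblasts all 8 myotube markers fell and 8 of 9 markers of dividing cells rose (edgeR), where 10.3% of all genes fell and 11.3% rose. Over all myotubes the cyclin gene Ccne1 alone among both lists passed (2.24 ± 0.40, adjusted p = 0.035, edgeR), where 0.556% of all genes did. The part of either marker set in the genotype values was not tested.

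The 6 endothelial markers summed to 1.97 to 3.96 CPM in dICR/dICR myotubes and 0.61 to 3.87 CPM in wild-type myotubes, and the 6 leukocyte markers in the table gave at most 11.9 CPM in any library. Fibroblast markers summed to 162 and 35.1 CPM in dICR/dICR myotubes and 36.9 to 297 CPM in wild-type myotubes. Lum, Tcf21 and Dpt had 0 counts in both dICR/dICR myotubes, but were near 0 in wild-type myotubes too. There Lum was at 0 in 3 libraries, Tcf21 in 4 and Dpt in 1, with at most 0.154, 0.087 and 0.986 CPM. Col1a1 of that list had 11.2 and 1.83 CPM in dICR/dICR myotubes, against 0.686 to 79.8 CPM in wild-type myotubes. The 7 smooth muscle and pericyte markers summed to 1053 and 1868 CPM in dICR/dICR myotubes and 1690 to 3893 CPM in wild-type myotubes, mostly from Des, which myotubes also express. Cspg4 had 0.145 and 0.642 CPM in dICR/dICR myotubes, against 0.838 to 41.7 CPM in wild-type myotubes, without overlap (log2 fold change -5.43 ± 1.72, adjusted p = 0.158, edgeR). Pdgfrb had 1.58 and 0.143 CPM, against 0 to 79.8 CPM, with overlap (adjusted p = 0.263). The 7 cardiac markers summed to 289 and 876 CPM in dICR/dICR myotubes and 905 to 2617 CPM in wild-type myotubes, mostly from Tnnt2, which immature skeletal muscle shares. Myh6, the cardiac myosin heavy chain, had 27.8 to 44.9 CPM in dICR/dICR myotubes and 10.2 to 77.2 CPM in wild-type myotubes, and it rose in wild-type differentiation (1.68 ± 0.49, adjusted p = 0.033). Gata4 of the cardiac list had 2.09 to 5.54 CPM in dICR/dICR myotubes and 0 to 0.923 CPM in wild-type myotubes, and it rose in the deep set (5.20 ± 0.62, adjusted p = 0.0198). The part of these cell types in the genotype values was not tested.

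**Figure D4:**
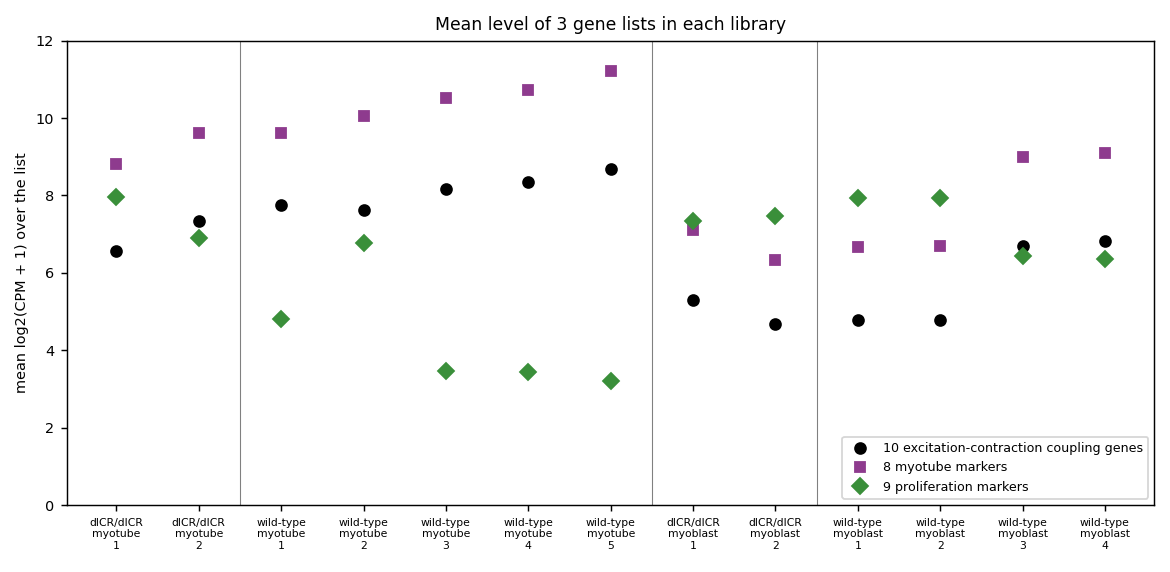
Mean log2(CPM + 1) in each library over the 10 excitation-contraction coupling genes, 8 myotube markers and 9 proliferation markers. The coupling genes and myotube markers are lowest in dICR/dICR myoblasts and deep wild-type myoblasts. The mean of the proliferation markers is higher in both dICR/dICR myotubes than in each wild-type myotube. The gap is narrow between dICR/dICR myotube 2 (6.91) and wild-type myotube 2 (6.76), whose summed levels lie in the reverse order.

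Ratios of counts between members within a library do not depend on the library's total or on scaling. There were 3.47 and 2.16 Jsrp1 counts per Cacng1 count in dICR/dICR myotubes, against 0.90, 0.48, 0.58, 0.70 and 0.63 in wild-type myotubes 1 to 5. In myoblasts the ratio was 3.13 and 5.68 in dICR/dICR, against wild-type values of 1.52, 1.44, 1.94 and 1.72. All 4 dICR/dICR libraries therefore lay above all 9 wild-type libraries, in both depth sets. The pairs were chosen with the members' values known, and no test was made. Over all libraries Cacng1 had the lowest genotype value in both stages, and Jsrp1 the smallest in size in myotubes. A higher ratio in dICR/dICR myotubes was therefore fixed by the choice of pair. How many other gene pairs separate this way was not counted.

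The voltage sensor was set against its adaptor in the same way. Over all libraries Cacna1s had a lower genotype value in myotubes (-2.02) than Stac3 (-0.40), Cacnb1 (-0.87) and Jsrp1 (-0.14). Higher ratios of these genes to Cacna1s in dICR/dICR myotubes were therefore also fixed by the choice of pairs. Stac3 counts per Cacna1s count were 1.83 and 0.94 in dICR/dICR myotubes, against 0.26 to 0.76 in wild-type myotubes, and 1.24 and 1.64 in dICR/dICR myoblasts, against 0.61 to 0.91 in wild-type myoblasts. Again no dICR/dICR library overlapped a wild-type library, though dICR/dICR myotube 2 (0.94) was close to wild-type myoblast 3 (0.91). Cacng1 per Cacna1s was 0.60 and 0.51 in dICR/dICR myotubes, against 0.90, 0.77, 0.83, 0.52 and 0.35 in wild-type myotubes 1 to 5. These overlap through the shallow libraries 4 and 5, while the deep wild-type myotubes 1 to 3 lay above both dICR/dICR myotubes. Myoblasts did not overlap in this ratio. Wild-type myoblasts 1 to 4 gave 0.72, 0.83, 0.47 and 0.50, and the dICR/dICR pair lay lower at 0.29 and 0.34. Over all libraries the genotype value in myoblasts was lower for Cacng1 (-2.15) than for Cacna1s (-1.36). The lower myoblast ratio therefore also followed from the choice of pair. Among ryanodine receptors, Ryr3 counts were 8.48% and 2.40% of Ryr1 counts in dICR/dICR myotubes, against 3.08% to 13.5% in wild-type myotubes, which overlap. In dICR/dICR myoblasts they were 2.19% and 3.74%, above the 0.69% to 1.77% of wild-type myoblasts. Against Cacna1s, Cacnb1 gave 0.62 and 0.50 in dICR/dICR myotubes and 0.15 to 0.35 in wild-type myotubes. Jsrp1 gave 2.09 and 1.10 against 0.22 to 0.81, so that both ratios were separated in myotubes. In myoblasts both overlapped, Cacnb1 giving 0.40 and 0.66 in dICR/dICR against 0.34 to 0.67 in wild type. For Jsrp1 the myoblast values were 0.91 and 1.94 against 0.85 to 1.19. Among store proteins, Casq2 per Ryr1 was 0.71 and 0.61 in dICR/dICR myotubes and 0.69 to 1.56 in wild-type myotubes, which overlap.

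**Figure D5:**
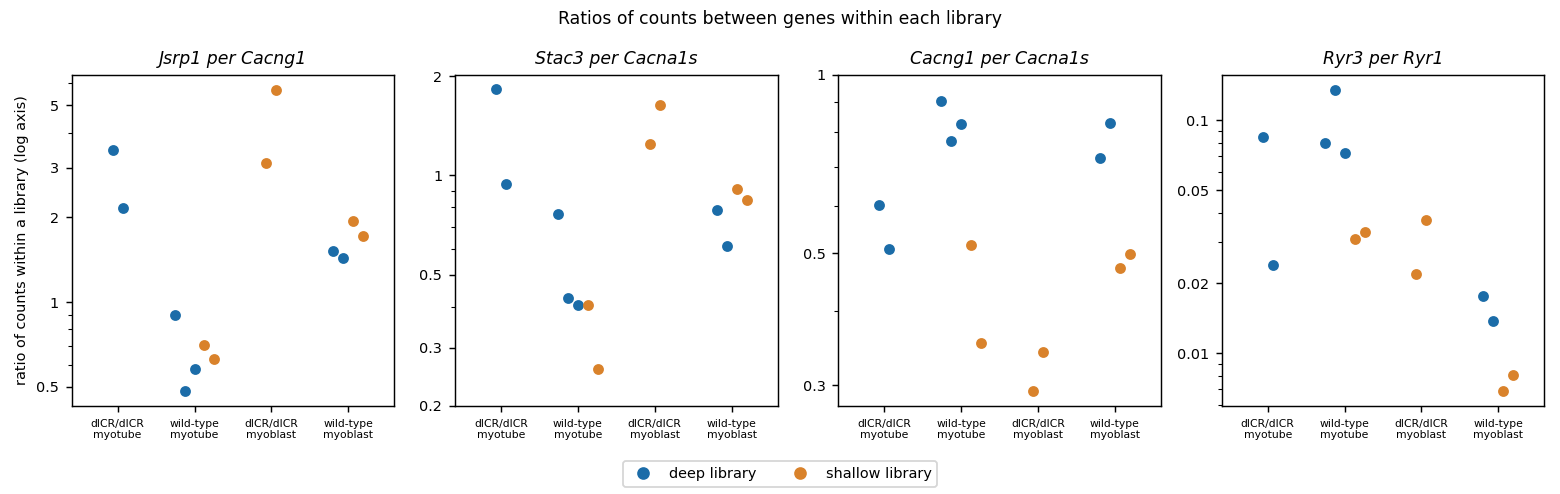
Ratio of raw counts of 2 genes within each library, on log axes, by group and depth set. Jsrp1 per Cacng1 and Stac3 per Cacna1s are higher in every dICR/dICR library than in every wild-type library, and Cacng1 per Cacna1s and Ryr3 per Ryr1 overlap in myotubes. The pairs were picked with the members' values known.

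Levels between genes were compared per kilobase of merged exons (GENCODE M21 lengths, which may differ from the annotation used for counting). In dICR/dICR myotubes the order of mean CPM per kilobase was Casq2 (165), Jsrp1 (132), Atp2a1 (71.8), Stac3 (71.7), Cacng1 (47.3), Ryr1 (42.8), Cacna1s (17.3), Cacnb1 (14.6), Trdn (11.6) and Ryr3 (1.71). In wild-type myotubes it was Casq2 (530), Cacng1 (206), Atp2a1 (148), Jsrp1 (145), Stac3 (94.8), Ryr1 (82.8), Cacna1s (70.0), Trdn (27.2), Cacnb1 (26.7) and Ryr3 (4.88). Cacng1 was thus the fifth in dICR/dICR and the second in wild type. Neighbours in either order mostly differed by less than their SD, which was 26.3 for Cacng1 and 16.8 for Stac3 in dICR/dICR myotubes, and 35.0 for Cacng1 and 98.4 for Atp2a1 in wild-type myotubes. Ryr3 stood below the rest by more than its SD in both (0.36 and 2.04).

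Likeness between profiles was measured as the mean absolute difference of centred log2 CPM over the 13 libraries. Cacna1s and Casq2 were nearest (0.22), followed by Stac3 and Jsrp1 (0.26), and Ryr1 and Cacnb1 were nearest to each other (0.30). Ryr3 was the farthest member from 9 others, at 0.80 (Trdn) or more. The non-member genes closest to the members' mean profile, of 11376 compared, were Ppapdc3 (0.15), Rab40b (0.15), Lmod3 (0.16), a regulator of sarcomeric actin filaments, the slow troponin gene Tnni1 (0.19) and Klhl41 (0.19), which acts in the sarcomere.

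Of 77 other genes of the pathway in the table, written as 6 lists, 76 were tested over all libraries. In wild-type differentiation 26 rose and 7 fell, where 8.86% of all genes rose and 10.2% fell, with a median log2 fold change of 1.07. Triad and transverse tubule genes gave 11 of 15 that rose and 1 that fell, and store, pump and buffer genes gave 6 of 16 and 1. Rrad, which encodes a GTPase that restrains calcium channels, rose by 2.82 ± 0.37, while its relative Rem1 had -2.96 ± 0.47 and fell. The membrane-repair gene Dysf (2.37 ± 0.33), the junctophilin gene Jph1 (2.26 ± 0.33), the caveolin gene Cav3 (2.64 ± 0.47), the phosphatase gene Mtm1 (1.44 ± 0.23), the channel subunit gene Cacna2d1 (1.87 ± 0.31) and the kinase gene Camk2a (2.29 ± 0.37) also rose, with adjusted p between 0.000906 and 0.00364 (edgeR) over these 8 genes. In the deep set 26 of 73 rose and 5 fell (11.6% and 10.6% of all genes there), and the store protein genes Hrc (3.67 ± 0.38) and Srl (3.42 ± 0.35) were among those with the smallest p. In the shallow set 33 of 70 rose and 4 fell (11.2% and 11.4% of all genes there), Sypl2 (2.39 ± 0.25) among those that rose. The genes of the other 4 lists gave 3 of 16 channel subunit and release channel genes that rose and 4 that fell, 2 of 8 store-operated entry genes that rose and 1 that fell, 3 of 9 membrane excitability genes that rose and 1 of 12 calcium sensing genes that rose.

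Genotype moved few of these over all libraries. In myotubes Dysf fell (-2.52 ± 0.45, adjusted p = 0.0357, edgeR), the 1 of 76 that passed, where 0.224% of all genes fell, with a median of -0.61. In the deep set Rrad was the 1 of 73 that fell (-1.47 ± 0.21, adjusted p = 0.0337), where 0.435% of genes did. In myoblasts 0 of 76 passed over all libraries (median -0.42), where 0.0302% of all genes did. Within the shallow set 28 of 70 fell and 4 rose, where 10.3% of genes fell and 11.3% rose. Among those with the smallest p were Dysf (-2.12 ± 0.23), the store potassium channel gene Tmem38a (-1.78 ± 0.20), the voltage-gated sodium channel gene Scn4a (-2.49 ± 0.29), the inward rectifier gene Kcnj2 (-3.20 ± 0.38), the pump regulator gene Sln (-2.90 ± 0.35) and the fast-fibre calsequestrin gene Casq1 (-1.87 ± 0.28), which fell, and the beta subunit gene Cacnb2, which rose (3.24 ± 0.48). In dICR/dICR differentiation 0 of 76 passed, where 0.145% of all genes did. In the difference between the changes 0 of 76 passed, where 0 of 16537 genes did.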

How the data were processed

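The authors deposited raw counts per gene for 13 libraries, unnormalised. The submitters' processing notes name TopHat2, HTSeq and the mm9 build. No annotation, counting mode or strand use is given in the sources used here, so reads of genes overlapping on opposite strands cannot be told apart. RNA was depleted of ribosomal RNA, per the labels' protocols.

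Counts were analysed in R 4.3.3 with edgeR 4.0.16. Genes were kept by filterByExpr with the 4 groups, a minimum count of 10 and a minimum total of 15, libraries were scaled by TMM, and there was 1 quasi-likelihood fit with 4 group means over all 13 libraries. Tests were two-sided, p-values were adjusted over all tested genes (Benjamini-Hochberg), and a gene was called at an adjusted p under 0.05. The SE is the log2 fold change over the root of its F statistic. CPM used totals multiplied by TMM factors, with a prior count of 2 for log2 values of single genes and a constant of 1 for list means. Depth sets were divided at a total of 20 M, and within-set fits used that set's libraries alone. DESeq2 1.42.0 was an alternative. The fit was tested on simulated data.

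The members, lists and tests were chosen with earlier results of these data known. Named genes were all 10 members, the pathway genes with the smallest p per contrast and set (at most 8), and the 5 genes nearest the members' mean profile with a mean log2 CPM of 1 or more. Some pathway genes that this rule names are not reported here. No 2 replicate libraries were identical, and a chi-square test of replicate pairs gave 4.67 (wild-type myoblasts 3 and 4) or more per degree of freedom. Same-numbered libraries of different groups had correlated deviations from -0.41 to 0.52, so replicate numbers were not taken as pairs.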

Additional observations from a re-analysis of the deposited data

Results flagged for a closer look

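In 20 groups of 4 or 5 libraries tested for a library far from the rest, where chance gives about 1 in 20, 2 had one. Jsrp1 stood at 106.2 CPM in wild-type myotube 2, with the nearest of the other wild-type myotubes at 167.8 CPM, a gap of 0.718 of the group's range. Trdn stood at 379.9 CPM in wild-type myotube 5, with the nearest at 219.5 CPM, a gap of 0.71 of the range.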

How the results depend on the processing

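Counts of the 10 genes called, over all libraries, were 0 for the genotype effect in myotubes, 0 in myoblasts, 6 for wild-type differentiation, 0 for dICR/dICR differentiation and 0 for the difference between the changes. With 1 library left out they ran from 0 to 0, except for wild-type differentiation (4 to 9). Of all 16537 tested genes, 92, 5, 3158, 24 and 0 were called over all libraries. DESeq2 called 2, 1, 9, 2 and 0 in the same order, and 1079, 443, 4310, 1163 and 62 of all genes. The depth set as a term gave 1, 2, 10, 10 and 0, and 425, 333, 5267, 1262 and 16 of all genes. Within the deep set wild-type differentiation gave 10 (3318 of 14952 genes). Within the shallow set it gave 10 (2845 of 12583 genes), with 9 for the genotype effect in myoblasts (2717 genes). Further settings were chosen after the data were seen. The fit with 6 means gave 2 (myotubes, deep), 8 (myoblasts, shallow), 10 (wild type, deep) and 7 (wild type, shallow). Of all genes it called 601, 868, 4804 and 1154. Leaving out wild-type myoblasts 3 and 4 gave 1, 0, 10, 3 and 0, and 143, 31, 3894, 184 and 0 of 16123 genes. Leaving out the 4 shallow wild-type libraries gave 1, 1, 10, 8 and 1, and 189, 1556, 3745, 2007 and 816 of 15643 genes. Stac3 was the myoblast gene called in the last (1.171, adjusted p = 0.0403, edgeR).

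The replicate block gave 10 calls in wild-type differentiation (3063 of all genes) and 0 elsewhere. Of the wild-type numbers, 3 of 4 deviated together (0.427 to 0.518) and number 3 did not (-0.411). The crossed replicate block, exchanging the dICR/dICR myotube numbers because theirs was -0.388, gave 0, 0, 10, 6 and 0. Of all genes it called 32, 36, 3654, 1046 and 0. With 2 libraries in each dICR/dICR group, exchanging the numbers reverses the sign of the -0.388 by construction. The exchange was chosen from these data, so no conclusion is drawn from its 6 calls. Library size alone put the median of all genes at -0.26 in wild-type differentiation (0.02 with TMM) and at 0.08 in the genotype effect in myotubes (-0.06), with 779 genes higher and 2825 lower in wild-type differentiation (1466 and 1692 with TMM) and 65 and 19 in the genotype effect in myotubes (55 and 37, and 413 and 666 in DESeq2). No member changed sign through scaling in the genotype and differentiation comparisons.

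Signs turned in uncalled genotype values, and the cause was not tested. In myotubes the replicate block gave Ryr1 0.0936, Stac3 0.3482, Jsrp1 0.4145 and Atp2a1 0.5419, the depth term gave Stac3 0.1604, Jsrp1 0.2359 and Atp2a1 0.01206, and the crossed block gave Stac3 0.3057, Jsrp1 0.4067 and Atp2a1 0.5188. Jsrp1 ran from -0.43 to 0.0882 with 1 library left out, the highest without dICR/dICR myotube 1. In myoblasts the replicate block gave Ryr1 0.0878, Stac3 0.4307 and Atp2a1 0.02672, and the crossed block Stac3 0.4175 and Atp2a1 0.02034. Ryr3 was -0.01179 within the shallow set and -0.03505 there with 6 means. Without wild-type myoblasts 3 and 4, then without all 4 shallow wild-type libraries, Ryr1 was 0.4585 and 0.4814, Cacna1s 0.1648 and 0.1901, Stac3 1.148 and 1.171, Jsrp1 0.2887 and 0.311, Atp2a1 0.5184 and 0.5417, Trdn 0.6154 and 0.641, and Casq2 0.01472 in the second. In both settings the difference between the changes was negative for all 10 genes, Jsrp1 at -0.4397 and -0.3387, and Ryr1, Cacng1, Cacnb1, Stac3 and Atp2a1, positive over all libraries, also turned.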
